A study of Mus musculus with 16 samples.

Results

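The skeletal muscle of mice fed a high-fat diet (HFD) and treated with resveratrol (the HFD + RSV group, 4 mice) was compared with that of mice on the same diet treated with metformin (the HFD + MET group, 4 mice). These 8 mice were chosen by their treatment labels from a series of 16 and are named as labelled, RH1-2, RH1-4, RH3-3, and RH6-3 for resveratrol and MH4-3, MH6-5, MH8-2, and MH8-4 for metformin. All were male C57BL/6 mice (C57BL/6J in the study's methods) bought at 6 weeks of age, given a diet with 60% fat for 8 weeks before treatment, and then treated for 6 weeks. Both groups therefore carried the same diet, and they differed in the drug. Untreated HFD mice (4) and control mice on normal diet (4) from the same series serve only to place the values. The metformin dose is not given in the sources used here, the study's text does not describe that group, and which muscle was taken is not stated. A single library was made from each mouse, so the replicates are mice. What the numbers in the mouse names stand for is not given in the sources used here, and whether mice with the same leading number (RH1-2 with RH1-4, and MH8-2 with MH8-4) shared a cage is therefore not known.

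Resveratrol is a plant polyphenol studied for its effects on the deacetylase SIRT1 and on AMPK, the kinase that senses cellular energy, while metformin is the most widely used drug for type 2 diabetes and inhibits respiratory complex I. Skeletal muscle takes up much of the glucose cleared after a meal, through insulin receptor substrates, the kinase AKT, and the transporter GLUT4. In muscle homogenates, fibres, capillaries, nerve, fat, and immune cells contribute RNA together, and fewer cells of a type and less RNA per cell cannot be told apart.

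RNA was depleted of ribosomal RNA and sequenced, and the authors deposited expected counts for each transcript. The total count of both tables (mRNA and lncRNA) ranged from 20281801 to 33737422 in the 8 mice. Skeletal muscle markers (Acta1, Ckm, Myh4, and others, 12 genes) summed to 202223 to 340419 CPM (counts scaled to library size and composition) with metformin and to 279757 to 333612 CPM with resveratrol. Of 11 retina markers, 7 were in the table and together reached at most 2.88 CPM, which bears on a mention of retinas in the labels' extraction text. The HFD + MET mice were split on the first principal component of the 16 mice: MH8-2 and MH4-3 lay at -57.5 and -24.1, below every HFD + RSV mouse (-4.7 to 30.1), and MH6-5 and MH8-4 lay at 38.6 and 35.0, above them. MH8-2, the farthest of the 8, also had the lowest muscle marker sum and the highest white adipocyte marker sum (7335 CPM, against 918 to 2191 in the HFD + RSV mice), and MH4-3 had the second highest (3443 CPM, against 1008 and 862 in MH6-5 and MH8-4). Counts over gene lists that changed without MH8-2 are given both ways. No libraries were identical, and rank correlations were as high between the groups (0.948 to 0.986) as within them (0.946 to 0.982).

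Few genes separated the drugs. Counts were summed per gene name, and 15364 mRNA genes passed the filter on low counts. With the criteria of the study (unadjusted P under 0.05 and an absolute log2 fold change, log2FC, above 1), 76 genes were called higher (0.495% of those tested) and 73 lower (0.475%) with resveratrol than with metformin. At any fold, 256 genes were higher (1.67%) and 463 lower (3.01%) at an unadjusted P under 0.05, together 4.68% of the genes tested, which is below the 5% that this threshold passes when nothing differs. After Benjamini-Hochberg adjustment in edgeR, 0 genes (0%) differed, the smallest adjusted P being 0.495, and DESeq2 gave 10. Among those 10 were Tyw3, Ifit1, Ostn, Oasl2, Bst2, and Egr2, with adjusted P from 0.00112 to 0.0408 by DESeq2. The CPM of the groups did not overlap for 92 genes higher (0.599%) and 147 lower (0.957%). Counts of calls depended on single mice: without MH8-2 there were 79 called higher and 19 lower, and without MH6-5, MH8-4, or RH3-3 the totals were 340, 309, and 283 in place of 149. Over the alternative fits, genes with P under 0.05 at any fold ranged from 174 to 419 higher and from 188 to 917 lower. Background shares given below are those of the main fit and do not apply to list counts with a mouse left out. Fold changes below are therefore described for genes and groups of genes, with the value of every mouse for those treated at most length. None passed the adjusted threshold in the main edgeR fit unless stated. Each log2FC is the HFD + RSV level minus the HFD + MET level and is given with its standard error.

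**Figure D1:**
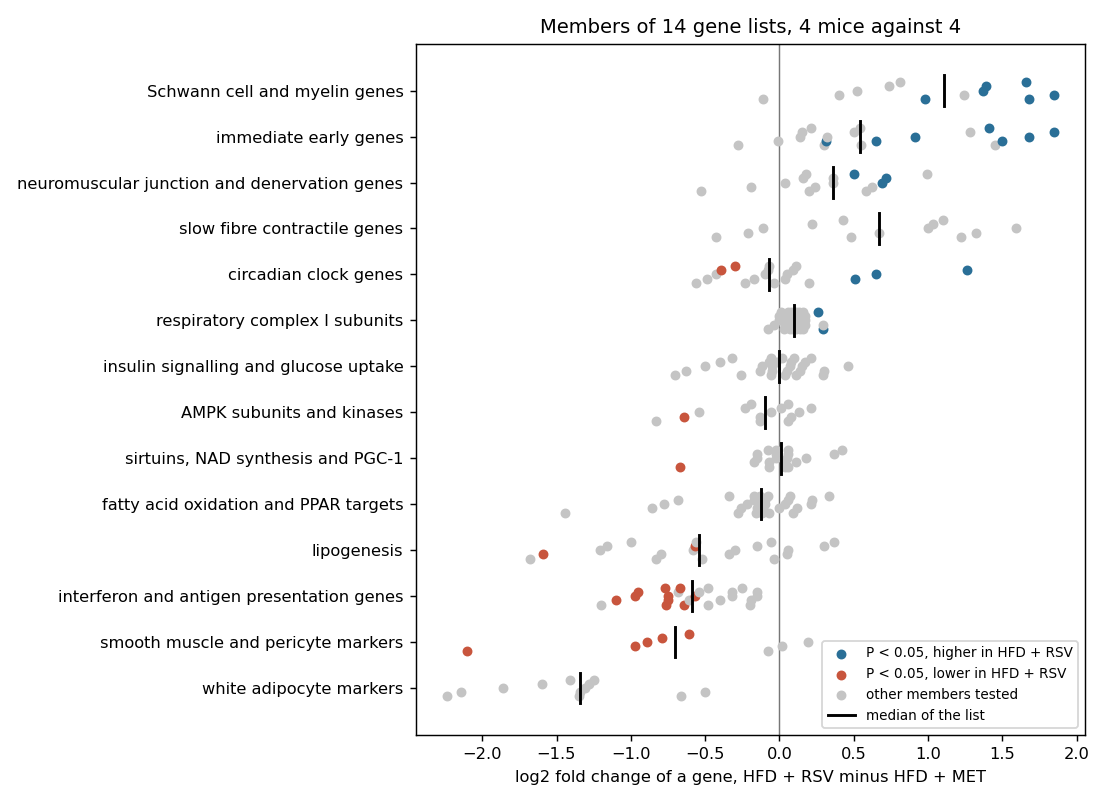
Log2FC of the tested members (points) of 14 gene lists, HFD + RSV minus HFD + MET with 4 mice each. Blue and red points mark genes with an unadjusted P under 0.05 higher or lower in the HFD + RSV group, and black bars mark list medians. Interferon genes lie wholly to the left of 0 (median -0.59), Schwann cell and immediate early genes mostly to the right (medians 1.11 and 0.54), and insulin signalling genes lie around 0 (median 0.00).

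Interferon-induced and antigen presentation genes were lower with resveratrol than with metformin. Type I interferons switch on many of these genes, though not all, through transcription factors that bind the interferon-stimulated response element (ISRE) in their promoters. Among the products of the list are proteins that block viral RNA or present peptides to T cells. All 24 members of the list were tested, and the log2FC of 24 was below 0, with a median of -0.59 against -0.00 over all genes tested. Of these, 10 (Ifit1, Ifit3, Isg15, Irf7, Oasl2, Rsad2, Usp18, Bst2, H2-K1, and Psmb8) were lower at P under 0.05, and 0 were higher (background 3.01% and 1.67%). The groups did not overlap for 5 of the 24 (background 0.957%).

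Of these 10 genes, 5 have an ISRE core within 250 bases before their start in RefSeq (GRCm38.p6), and these sequences are shown because the genes moved together. The motif searched was GAAA followed after any 2 bases by GAAA, on both strands (TTTC, any 2 bases, and TTTC), and its matches are in capitals (overlapping matches run together). Each line gives the 160 bases that end just before the start, 5′ to 3′ on the strand of the gene.
Ifit1 (chr19:34640729-34640888, plus strand): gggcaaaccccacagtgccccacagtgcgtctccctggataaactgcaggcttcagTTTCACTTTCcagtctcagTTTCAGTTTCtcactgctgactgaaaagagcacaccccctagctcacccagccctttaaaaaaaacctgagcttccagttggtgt
Ifit3 (chr19:34583369-34583528, plus strand): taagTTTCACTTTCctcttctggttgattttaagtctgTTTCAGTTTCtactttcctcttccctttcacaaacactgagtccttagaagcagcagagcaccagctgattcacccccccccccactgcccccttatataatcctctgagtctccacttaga
Isg15 (chr4:156200819-156200978, minus strand): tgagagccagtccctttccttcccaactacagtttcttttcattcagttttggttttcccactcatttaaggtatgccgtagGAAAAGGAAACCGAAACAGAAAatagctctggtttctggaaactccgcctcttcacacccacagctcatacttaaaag
Rsad2 (chr12:26456453-26456612, minus strand): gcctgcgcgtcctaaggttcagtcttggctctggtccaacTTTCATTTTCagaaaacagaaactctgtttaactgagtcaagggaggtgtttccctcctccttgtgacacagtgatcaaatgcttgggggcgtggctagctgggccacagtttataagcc
Bst2 (chr8:71537473-71537632, minus strand): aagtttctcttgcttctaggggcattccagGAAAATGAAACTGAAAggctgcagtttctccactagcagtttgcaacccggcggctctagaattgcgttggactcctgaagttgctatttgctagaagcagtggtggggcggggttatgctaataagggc
Ifit1 holds its matches from 104 and 85 bases before the start and Ifit3 from 156 and 122, while the 3 matches of Isg15 overlap. RefSeq promoters were found for 9 of the 10 genes (Usp18 was not matched), so 5 of 9 held the letters. The share was 2.98% of all 32851 promoter windows and 3.24% of the tested genes with a promoter. The list was drawn up from interferon and antigen presentation genes, and its other members were not searched. The share of 5 in 9 therefore describes the kind of gene listed and does not bear on the drugs. A match describes the letters and does not show binding.

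Ifit1, which binds viral RNA and is among the genes most strongly induced by interferon, had the smallest P of the lower genes named here. It measured 3.90, 5.32, 8.20, and 4.92 CPM in MH4-3, MH6-5, MH8-2, and MH8-4, and 2.95, 2.77, 2.48, and 2.19 in RH1-2, RH1-4, RH3-3, and RH6-3. The groups did not overlap, and the log2FC was -1.10 ± 0.20 (P = 7.72e-05 and adjusted P = 0.495 by edgeR, exact permutation P = 0.0286, the smallest that 4 against 4 allows). Oasl2, an oligoadenylate synthase-like antiviral protein, measured 6.49, 7.00, 8.83, and 6.50 CPM with metformin and 4.11, 4.34, 5.32, and 4.29 with resveratrol (log2FC -0.67 ± 0.14, P = 0.000169 by edgeR, exact P = 0.0286). Bst2, the tetherin that holds budding virions at the cell surface, measured 7.04, 6.52, 9.46, and 6.50 against 3.89, 5.29, 4.48, and 3.84 CPM (log2FC -0.75 ± 0.16, P = 0.000222 by edgeR, exact P = 0.0286). In these 3 genes every HFD + MET mouse was above every HFD + RSV mouse. Irf7, the interferon regulatory factor that amplifies the response, was at 3.27 to 6.42 CPM with metformin and 1.91 to 3.58 with resveratrol, and RH1-2 lay above MH6-5 and MH8-4 (log2FC -0.76 ± 0.24, P = 0.00698 by edgeR, exact P = 0.0857).

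The 15 lower genes named for the smallest P with groups that did not overlap held 1 member of the list, Ifit1, and 14 others. Of these 14, 6 are described here, picked after their values were seen and not tested as a group, and the other 8, among them Trpv1, Duox2, Hoxb3, and Adcy10, are given further on. Mx2, a dynamin-like antiviral GTPase, measured 1.39 to 2.20 CPM with metformin and 0.715 to 0.867 with resveratrol (log2FC -1.11 ± 0.22, P = 0.000129 by edgeR, exact P = 0.0286). Slfn9, of the Schlafen family, was at 1.27 to 3.00 against 0.799 to 0.849 CPM, and Rtp4 at 1.87 to 4.73 against 1.24 to 1.65 CPM. Ifi213 and Zbp1, both nucleic acid sensors, had log2FC of -1.43 ± 0.33 and -1.36 ± 0.53, and Apol9b -1.01 ± 0.31. Without MH8-2 the log2FC was -0.95 for Mx2, -0.81 for Slfn9, -0.76 for Rtp4, and -0.90 for Zbp1, and all 4 lost the call. The call of Zbp1 was lost under 3 of 13 alternatives and that of Apol9b under 7, while Ifi213 was called under all 13. Slfn9, Ifi213, and Apol9b hold the ISRE letters too, so that 4 of the 9 matched genes among those 15 did, Ifit1 included. A lncRNA that overlaps exons of Mx1, NONMMUT027903.2, was counted 13, 12, 28, and 9 times with metformin and 2, 4, 6, and 4 times with resveratrol (log2FC -1.82 ± 0.58, P = 0.00688 by edgeR, exact P = 0.0286).

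Against untreated HFD mice, the difference lay on the side of metformin. In the HFD + MET group 17 of 24 list members were higher than in the HFD group at P under 0.05 and 0 lower (background 5.23% higher and 2.79% lower), and in the HFD + RSV group 3 were higher and 0 lower (background 2.82% and 1.89%). Without MH8-2 the count with metformin was 11 of 24. Both comparisons share the HFD mice. Markers of other cells were also above HFD with metformin at P under 0.05, in 7 of 7 tested erythroid genes (5 of 7 with resveratrol), 4 of 12 white adipocyte markers (median 1.66, all 12 above 0), and 4 of 10 endothelial markers. Without MH8-2 these counts with metformin were 2 of 7, 0 of 12, and 1 of 10, and their part in the result was not tested. Ifit1 was 1.19 log2 units above HFD with metformin (adjusted P = 0.141) and 0.09 with resveratrol (adjusted P = 0.999). Oasl2 was 1.05 above HFD with metformin (adjusted P = 0.0133, 1 of 2 genes that passed the adjusted threshold in that comparison) and 0.38 with resveratrol (adjusted P = 0.999). The control mice on normal diet had 2.81 to 4.09 CPM of Ifit1, and the HFD mice 2.29 to 2.61.

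**Figure D2:**
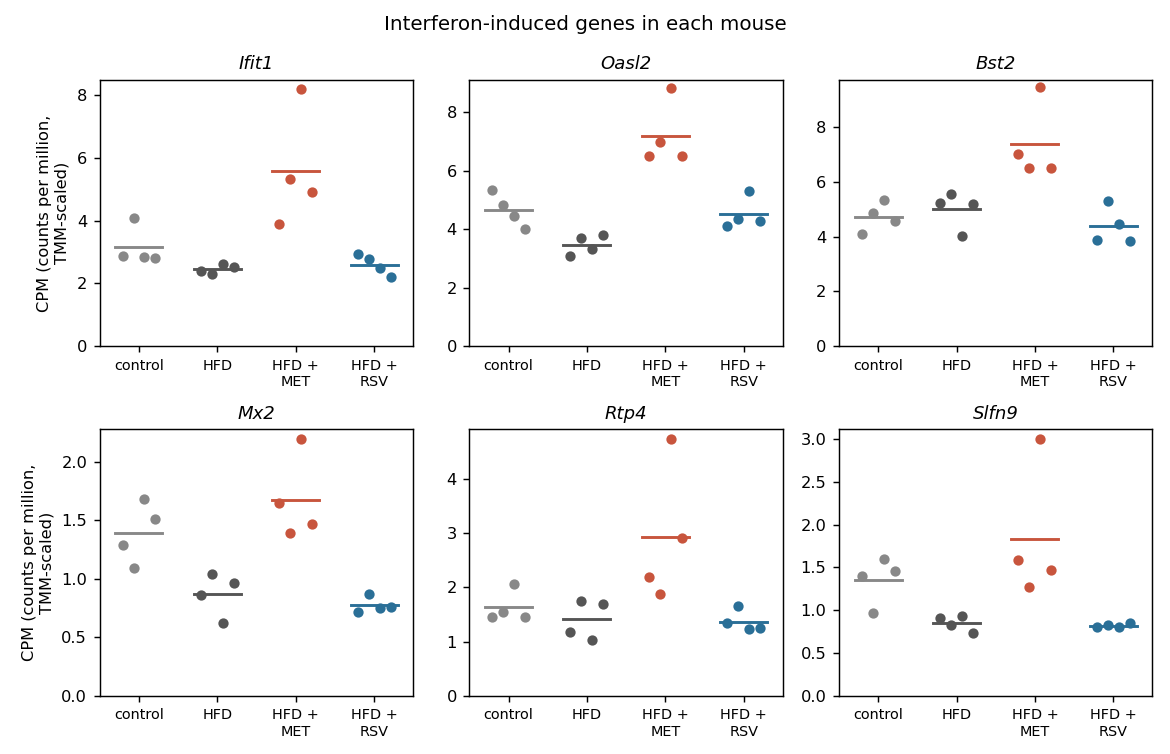
CPM of 6 interferon-induced genes in each mouse (points) of the 4 groups, with group means as horizontal lines. In each of the 6 genes the 4 HFD + MET mice lie above the 4 HFD + RSV mice, and the HFD + RSV mice overlap with the untreated HFD mice except for Oasl2, where they lie above them (4.11 to 5.32 against 3.07 to 3.81 CPM). MH8-2 is the third point from the left of the HFD + MET group.

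MH8-2 was the highest mouse for all 3 of Ifit1, Oasl2, and Bst2. Without it, 5 of the 24 members were lower at P under 0.05, the median was -0.25, and 24 were below 0. Without MH6-5 or MH8-4, 16 were lower, and without MH4-3, 9 were lower and 4 lay above 0. The number of all genes tested that were lower at P under 0.05 moved too, from 188 to 917 over the alternatives. The log2FC of Ifit1 ranged from -1.24 to -0.86 over 13 alternatives, and the fold criterion was missed without MH8-2. The 24 members summed to 796, 405, 1073, and 463 CPM in MH4-3, MH6-5, MH8-2, and MH8-4, and to 344 to 628 CPM with resveratrol. White adipocyte markers were, like these 3 genes and this sum, highest in MH8-2. Macrophage markers were highest in MH4-3, which was the lowest HFD + MET mouse for Ifit1 but not for the sum. White adipocyte markers summed to 3443, 1008, 7335, and 862 CPM in the 4 HFD + MET mice, and macrophage markers to 405, 123, 231, and 243 CPM, compared with 139 to 338 with resveratrol. Lymphocyte and neutrophil markers were near 0 in both groups (at most 2.53 CPM in sum; 10 of 11 in the table, 0 tested). The part of the other markers in the result was not tested.

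Genes of Schwann cells and myelin were higher in the HFD + RSV group, and 1 mouse set most of the count. Schwann cells wrap the motor axons that run through muscle, and the list holds structural myelin proteins such as Pmp22, Mbp, and Mag, the scaffold proteins periaxin (Prx) and Drp2, and the factors Sox10 and Egr2 that drive the myelin program. Of 12 members tested, 11 had a log2FC above 0 with a median of 1.11. At P under 0.05, 6 of 12 were higher (background 1.67%), among them Prx, Egr2, Pllp, Drp2, and Sox10, and 0 were lower. Prx, which anchors myelin to the outer membrane, measured 8.80, 13.6, 12.0, and 7.26 CPM with metformin and 15.6, 80.7, 5.94, and 30.1 with resveratrol (log2FC 1.66 ± 0.63, P = 0.0188 by edgeR, exact P = 0.257). Drp2, its partner in the membrane scaffold, measured 5.28, 13.5, 7.86, and 3.99 against 14.5, 39.9, 5.32, and 19.8 CPM (log2FC 1.37 ± 0.54, P = 0.0243 by edgeR, exact P = 0.114). The groups overlapped for both, and RH3-3 was as low as the metformin mice. Among the control mice Prx ran from 10.2 to 40.4 CPM. RH1-4 was the highest mouse, with 491 CPM over the list against 60.4 to 183 in the other HFD + RSV mice and 61.4 to 109 with metformin. Without RH1-4 the median was 0.32 and 1 of 12 was higher at P under 0.05, without MH8-4 the count was 2, and without RH3-3 it was 10. Against the HFD mice (61.6 to 84.3 CPM over the list), 10 of 12 were higher with resveratrol (background 2.82%) and 0 of 12 with metformin (background 5.23%) at P under 0.05. Without RH1-4, 3 of 12 were higher with resveratrol.

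Egr2, which belongs to both the myelin program and the immediate early genes, kept its call without that mouse. It measured 0.880, 0.375, 0.929, and 0.683 CPM with metformin and 3.31, 3.03, 1.20, and 1.61 with resveratrol, with no overlap (log2FC 1.68 ± 0.38, P = 0.000464 by edgeR, exact P = 0.0286, adjusted P = 0.648 by edgeR). It was called under all 13 alternatives, with a log2FC of 1.45 to 1.89.

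Several immediate early genes were higher in the HFD + RSV group. Their transcription rises within minutes of a stimulus such as contraction, stretch, or growth factors, without new protein synthesis, and their products are transcription factors (Fos, Fosb, Junb, Jund, Egr2, Nr4a3) or signal brakes such as the phosphatase Dusp1. These 7 were higher at P under 0.05 among 19 tested (background 1.67%) and 0 were lower; Fos, Fosb, Egr2, and Nr4a3 were called, and the list median was 0.54. Fos measured 9.40, 10.7, 13.5, and 15.4 CPM with metformin and 72.9, 21.7, 22.0, and 22.4 with resveratrol (log2FC 1.5 ± 0.39, P = 0.00155 by edgeR, exact P = 0.0286). All HFD + RSV mice were above all HFD + MET mice, and RH1-2 was far above the rest. Without RH1-2 the log2FC of Fos was 0.85, the list median was 0.22, and 3 of 19 members were higher at P under 0.05, whereas without RH3-3 it was 12 of 20. Fosb showed the same mouse at the top (9.52 CPM, against 1.08 to 3.44 in the other HFD + RSV mice and 0.337 to 1.33 with metformin) and overlapped between the groups. Junb was at 10.6 to 34.6 CPM with resveratrol and 8.28 to 12.5 with metformin, and Dusp1 at 81.4 to 179 and 58.4 to 104 CPM, so that both overlapped. According to the study's methods, some randomly chosen mice of each group it describes were injected with insulin shortly before anaesthesia. Whether the sequenced mice were among them is not given in the sources used here, so the part of the injection in these values was not tested.

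Nr4a3, a nuclear receptor induced by exercise and cAMP in muscle, had its highest values in untreated HFD mice. It measured 2.86, 2.88, 2.83, and 2.48 CPM with metformin, a narrow range, and 12.2, 6.42, 4.57, and 6.17 with resveratrol (log2FC 1.41 ± 0.38, P = 0.00232 by edgeR, exact P = 0.0286). The HFD mice had 8.5 to 35.2 CPM and the control mice 6.24 to 10.7. On average both treated groups thus lay below the HFD group, metformin by 3.02 log2 units (adjusted P = 0.0133 by edgeR) and resveratrol by 1.61 (adjusted P = 0.999 by edgeR). RH1-2, at 12.2 CPM, lay within the HFD range. Fos, in contrast, was 1.06 above HFD with resveratrol (adjusted P = 0.999 by edgeR) and at -0.44 with metformin (adjusted P = 0.754 by edgeR).

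The serum response factor binds a CArG box in the promoters of many immediate early genes. Of the 7 genes above, all with RefSeq promoters, Egr2 held a CArG box (capitals) within 250 bases before a start, compared with 1.47% of all promoter windows, and Dusp1 held the cAMP response element TGACGTCA (1.55%). The promoter of Egr2 is shown because it alone of the 7 held the CArG box in this window. Boxes farther than 250 bases before a start were not searched for, so the other genes cannot be said to lack one.
Egr2 (chr10:67537709-67537868, plus strand): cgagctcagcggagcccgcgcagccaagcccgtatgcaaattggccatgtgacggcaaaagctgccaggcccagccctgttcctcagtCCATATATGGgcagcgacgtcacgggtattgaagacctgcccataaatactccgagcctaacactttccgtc

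**Figure D3:**
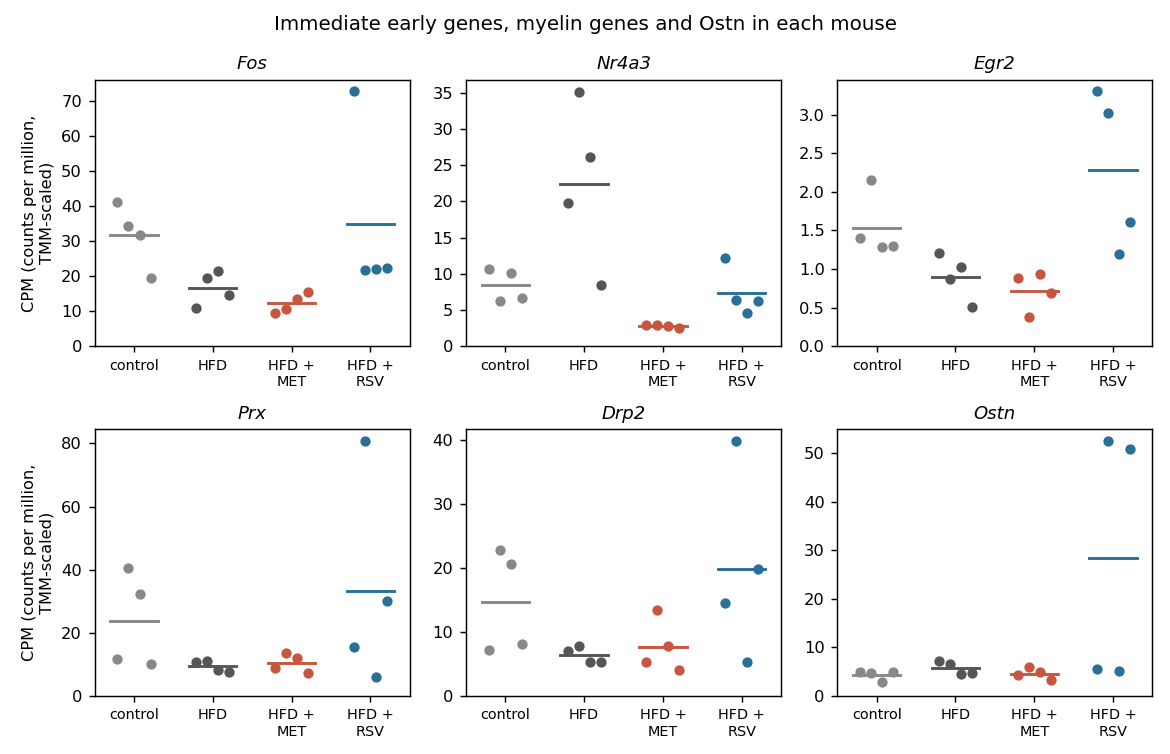
CPM of 3 immediate early genes, 2 myelin genes, and Ostn in each mouse of the 4 groups, with group means as horizontal lines. For Fos, Nr4a3, and Egr2 no HFD + RSV mouse falls within the HFD + MET range, while Prx, Drp2, and Ostn are raised in some HFD + RSV mice and overlap with metformin in others.

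Ostn encodes osteocrin (musclin), a peptide that muscle secretes and that slows the clearance of natriuretic peptides. It had the largest fold change among the genes of the muscle-secreted list. The HFD + MET mice had 4.18, 5.88, 4.98, and 3.23 CPM, and the HFD + RSV mice 5.41, 52.4, 5.01, and 50.8 (log2FC 2.63 ± 0.64, P = 0.00106 by edgeR, exact P = 0.114, adjusted P = 0.833 by edgeR). RH1-4 and RH6-3 lay far above every other mouse of both groups, and the remaining pair lay in the metformin range. The HFD mice had 4.42 to 7.14 CPM and the controls 2.81 to 4.94. Leaving out either of the high mice kept the call, with a log2FC of at least 2.16. Of the other 14 tested members of the list, 0 passed P under 0.05.

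RH1-4 and RH6-3 were also the highest HFD + RSV mice for several genes of the neuromuscular junction and of slow fibres. Chrna1, the alpha subunit of the acetylcholine receptor, measured 6.71, 9.40, 5.45, and 7.69 CPM with metformin and 10.2, 12.5, 5.50, and 20.1 with resveratrol (log2FC 0.72 ± 0.31, P = 0.0359 by edgeR, exact P = 0.2). Lrp4, the agrin receptor, and Colq, the collagen tail of acetylcholinesterase, had log2FC of 0.50 ± 0.18 (P = 0.0162 by edgeR, exact P = 0.0857) and 0.69 ± 0.32 (P = 0.0489 by edgeR, exact P = 0.229). These 3 of 15 members were higher at P under 0.05 and 0 lower (background 1.67% and 3.01%), and the list median was 0.36, but 0 of 15 were without MH8-2 or RH6-3, 1 was without MH4-3 or RH1-4, 6 were without MH6-5, and 5 were without RH3-3. Myh7, the slow myosin heavy chain, measured 70.8, 138, 59.1, and 38.0 CPM with metformin and 7.07, 189, 39.3, and 531 with resveratrol, so it was spread over more than the whole metformin range (log2FC 1.32 ± 1.28, P = 0.318 by edgeR, exact P = 0.971). Of 13 slow fibre genes and 15 fast fibre genes, 0 passed P under 0.05.

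Of 19 circadian clock genes, 5 differed at P under 0.05, in both directions, and only Npas2 also passed the fold criterion. The circadian clock is a loop in which ARNTL (BMAL1) with CLOCK or NPAS2 switches on Per, Cry, and Nr1d genes whose products repress it. Npas2 measured 1.54, 1.39, 1.61, and 0.826 CPM with metformin and 4.02, 2.90, 4.04, and 1.79 with resveratrol (log2FC 1.26 ± 0.33, P = 0.00167 by edgeR, exact P = 0.0286), with no overlap and a call under all 13 alternatives. Arntl measured 16.7, 21.2, 20.7, and 18.5 against 34.1, 26.9, 37.7, and 22.3 CPM, again with no overlap (log2FC 0.65 ± 0.22, P = 0.00981 by edgeR, exact P = 0.0286). Nfil3, a repressor of clock outputs, had a log2FC of 0.51 ± 0.18 (P = 0.0144 by edgeR, exact P = 0.114). On the other side, the repressors Per3 (54.3 to 69.7 against 32.9 to 51.5 CPM) and Cry2 (58.2 to 76.1 against 49.5 to 57.3 CPM) were lower with no overlap (log2FC -0.39 ± 0.17 and -0.30 ± 0.10). Of the 19 members, 3 were thus higher and 2 lower at P under 0.05 (background 1.67% and 3.01%), and the groups did not overlap for 2 higher and 2 lower (background 0.599% and 0.957%). The other 14 did not pass, among them Per2 (-0.43 ± 0.31), Dbp (-0.49 ± 0.38), Nr1d1 (-0.07 ± 0.18), and Clock (0.05 ± 0.19). The counts ranged over the alternatives from 2 to 3 higher and 1 to 2 lower. Against HFD mice, Arntl was at -0.53 with metformin (adjusted P = 0.618) and at 0.12 with resveratrol (adjusted P = 0.999). The time of day at which each mouse was killed is not given in the sources used here, so its part in these values was not tested. Neither the E-box CACGTG (6.02% of promoter windows) nor the ROR element (AANT followed by AGGTCA, 0.177%) was found in the 250 bases before the starts of these 5 genes.

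**Figure D4:**
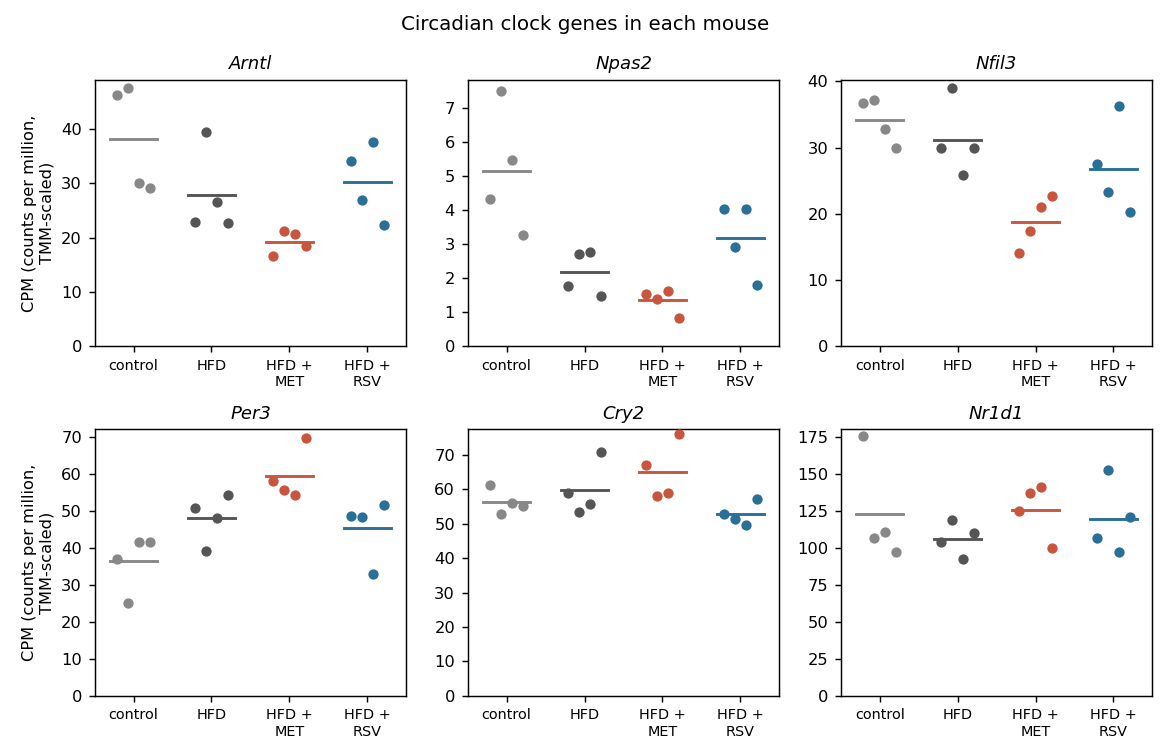
CPM of 6 circadian clock genes in each mouse of the 4 groups, with group means as horizontal lines. Arntl and Npas2 are higher and Per3 and Cry2 lower in every HFD + RSV mouse than in every HFD + MET mouse, Nfil3 overlaps between the groups, and Nr1d1 shows no separation.

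Genes of insulin signalling did not separate the drugs. The list runs from the receptor (Insr) and its substrates (Irs1, Irs2) through the PI3 kinase subunits and AKT to the GLUT4 transporter (Slc2a4). All 28 members were tested, the median log2FC was 0.00, 14 lay above 0 and 14 below, and 0 passed P under 0.05. Slc2a4 measured 352, 432, 291, and 413 CPM with metformin and 361, 413, 355, and 398 with resveratrol (log2FC 0.04 ± 0.12). Irs1 was at 0.21 ± 0.17, Irs2 at 0.29 ± 0.23, Akt2 at -0.05 ± 0.12, and Insr at -0.13 ± 0.09. The smallest P of the list was 0.0541. The members ranged from -0.70 ± 0.37 for Pik3r1, a regulatory PI3 kinase subunit that was high in MH8-2 (351 CPM, against 89.8 to 111 in the other 7 mice), to 0.46 ± 0.22 for Grb14, an inhibitor of the insulin receptor. The median standard error in this list was 0.14, and differences well above it, such as those of Irs2 and Pik3r1, did not pass P under 0.05. Differences between the drugs of such sizes can therefore have been missed. Socs1, an inhibitor of cytokine and insulin signals that the study followed, was at 0.262 to 1.10 CPM with metformin and 0.447 to 0.867 with resveratrol (log2FC -0.26 ± 0.53, P = 0.631 by edgeR, exact P = 0.657), below the 1.3 to 6.57 CPM of the HFD mice in both. Stat2 was the only SOCS and JAK-STAT gene of 26 tested with P under 0.05 (log2FC -0.43 ± 0.20, P = 0.0484 by edgeR, exact P = 0.0571), and 0 of 26 passed without MH8-2.

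The genes nearest to the drugs' proposed targets differed little. Of 14 AMPK subunits and kinases, Camkk2, an upstream kinase, was lower at P under 0.05 (log2FC -0.64 ± 0.27, P = 0.0349 by edgeR, exact P = 0.257), with 11.6, 7.12, 17.4, and 6.90 CPM against 7.24, 7.63, 7.10, and 5.63. Without MH8-2 its log2FC was -0.30, and 0 of 14 passed P under 0.05. The catalytic subunits Prkaa1 and Prkaa2 were at -0.13 ± 0.16 and 0.08 ± 0.15. Among 20 sirtuin, NAD, and PGC-1 genes, Sirt1 was lower in the HFD + RSV group (17.9, 10, 22.2, and 9.74 against 8.67, 10.8, 8.74, and 9.43 CPM, log2FC -0.67 ± 0.22, P = 0.0078 by edgeR, exact P = 0.114), and the groups overlapped because MH6-5 and MH8-4 were as low as the resveratrol mice. Without MH8-2 its log2FC was -0.41. Sirt1 was 0.77 above HFD with metformin (adjusted P = 0.58) and 0.10 with resveratrol (adjusted P = 0.999). Of 37 complex I subunits, Ndufa1 (27.1 to 31.6 against 31.9 to 39.3 CPM, log2FC 0.26 ± 0.12) and Ndufc1 (0.29 ± 0.13) were higher, with groups that did not overlap for Ndufa1, and 0 of 37 passed without MH8-2. The list median was 0.10, compared with 0.09 for complexes II to V, where 0 of 40 passed P under 0.05. Of 14 metformin transporters and targets, 9 were tested and 0 passed P under 0.05, and the other 5 did not pass the filter on low counts. In the aryl hydrocarbon receptor, Nrf2, and drug metabolism list, Ahr (-0.46 ± 0.19) and the sulfotransferase Sult1a1 (-0.74 ± 0.30) were the 2 of 26 with P under 0.05, both lower. Without MH8-2 they were at -0.22 and -0.23, and 0 of 26 passed.

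White adipocyte, lipogenesis, and fatty acid oxidation genes lay mostly below 0 in the HFD + RSV group, and in the first 2 lists MH8-2 accounted for much of the size. All 12 white adipocyte markers had a log2FC below 0 (median -1.34), but 0 passed P under 0.05: Adipoq, the adiponectin gene, measured 182, 3.67, 355, and 23.5 CPM with metformin and 31.6, 67.9, 112, and 16.5 with resveratrol (log2FC -1.31 ± 1.04). Without MH8-2 the median was -0.27. The lipogenesis list had a median of -0.54, and -0.04 without MH8-2. Srebf1, the transcription factor that drives fatty acid synthesis, was the member with the clearest difference, at 142, 93.2, 141, and 94.1 CPM against 71.7, 85.3, 88.5, and 72.3, with no overlap (log2FC -0.57 ± 0.20, P = 0.0115 by edgeR, exact P = 0.0286). Thrsp, which supports lipogenesis in fat and liver, was called lower (log2FC -1.59 ± 0.73, P = 0.0467 by edgeR, exact P = 0.371) on values of 31.8, 11.4, 109, and 9.05 against 8.76, 14.4, 18.1, and 12.3 CPM. The call was lost under 9 of 13 alternatives, and without MH8-2 the log2FC was -0.37. Of 30 genes of fatty acid oxidation and PPAR targets, 0 passed P under 0.05 (median -0.12). In the cholesterol synthesis and uptake list the median was 0.04, with 10 of 19 above 0. There Sqle was higher (0.69 ± 0.30) and Scap lower (-0.14 ± 0.06).

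Contractile genes of smooth muscle (Myh11, Acta2, Tagln, and Cnn1) and the pericyte marker Cspg4 were lower in the HFD + RSV group, a result that was lost without MH8-2. Myh11, the smooth muscle myosin, measured 48.0, 102, 149, and 37.8 CPM with metformin and 49.4, 40.3, 39.1, and 42.9 with resveratrol (log2FC -0.97 ± 0.35, P = 0.0144 by edgeR, exact P = 0.257). Acta2 (-0.89 ± 0.35), Tagln (-0.79 ± 0.34), Cspg4 (-0.61 ± 0.26), and Cnn1 (-2.10 ± 0.86, called) followed, making 5 of 8 markers lower at P under 0.05 (background 3.01%). The other 3, the pericyte genes Rgs5, Pdgfrb, and Kcnj8, were at 0.02 ± 0.19, -0.08 ± 0.12, and 0.19 ± 0.20. The groups overlapped for all 5. Without MH8-2, 0 of 8 passed P under 0.05 (median -0.31), without RH3-3 the count was 1, and without MH6-5, RH1-4, or RH6-3 it was 3. Of the 10 endothelial markers, Vwf was lower (-0.41 ± 0.18, P = 0.0363 by edgeR, exact P = 0.0857), and 0 of 10 were without MH8-2. In the remaining lists 0 or 1 gene passed P under 0.05 in each direction: Eif4ebp1 (-0.50 ± 0.18), Acadsb (-0.24 ± 0.09), and Xbp1 (-0.32 ± 0.13) were lower, Hspa5 (0.29 ± 0.13) and Col15a1 (0.43 ± 0.19) higher, and macrophage, fibroblast, tendon, erythroid, satellite cell, brown fat, glycolysis, mitochondrially encoded, autophagy, proteasome, and ribosomal protein genes had 0.

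Among the genes outside the lists, the smallest P was that of Tyw3, an enzyme of wybutosine synthesis in phenylalanine tRNA (log2FC 1.05 ± 0.18, P = 3.26e-05 by edgeR, exact P = 0.0286, adjusted P = 0.495 by edgeR), which is described with the lncRNAs. Its call was lost under 2 of 13 alternatives, without MH4-3 or without MH8-4. Shc4, an adapter protein of receptor tyrosine kinases, measured 0.990, 2.58, 1.39, and 0.970 CPM with metformin and 3.31, 7.72, 4.21, and 4.11 with resveratrol (log2FC 1.69 ± 0.42, P = 0.00117 by edgeR, exact P = 0.0286). All HFD + RSV mice were above all HFD + MET mice, and the call held under all 13 alternatives. On the lower side, Trpv1, the heat- and capsaicin-gated cation channel of sensory neurons, measured 1.32, 0.749, 2.11, and 0.790 against 0.402, 0.260, 0.488, and 0.402 CPM (log2FC -1.66 ± 0.39, P = 0.000792 by edgeR, exact P = 0.0286), also with a call under all 13. The other higher genes named by the rule were 1810014B01Rik, Enkur, Lca5, Tvp23a, Mmp16, Uckl1os, Zfp934, C1ql3, and Ces1e, with log2FC from 1.00 to 2.54. Of these, Lca5, Mmp16, and Zfp934 lost the call under 4 alternatives each, Ces1e under 2, and C1ql3 under 1. The other lower ones were Gm45280, Duox2, D930048N14Rik, Hoxb3, AC149588.1, Ackr2, and Adcy10, with log2FC from -4.28 to -1.02. Without MH8-2, Gm45280, D930048N14Rik, Hoxb3, Ackr2, and Adcy10 lost the call, with log2FC from -1.14 to -0.69. Most of these other higher and lower genes were expressed at about 1 CPM or less, where counts per mouse were low. AC149588.1 measured 3.74, 3.63, 4.77, and 0.287 CPM with metformin and 0.0444 to 0.260 with resveratrol, and its levels in the untreated HFD mice ran from 0.0865 to 4.62 CPM.

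Of 17599 lncRNAs tested, 169 were called higher (0.96%) and 147 lower (0.835%) in the HFD + RSV group, and 441 (2.51%) and 495 (2.81%) differed at P under 0.05 at any fold. The groups did not overlap for 184 higher (1.05%) and 226 lower (1.28%). A single lncRNA passed the adjusted threshold (0.00568%). Of the 316 called, 164 (51.9%) overlapped an exon of a tested mRNA gene, compared with 32.9% of all lncRNAs tested, and 108 (34.2%, against 19.4%) lay wholly within an exon of an annotated gene. A further 67 (21.2%, against 33.9%) lay in introns and 34 (10.8%, against 16.3%) outside annotated genes. For 89 of the 164 (54.3%) an overlapped gene had a log2FC of the opposite sign, compared with 44.9% of the 5792 tested lncRNAs that overlap such exons, and for 15 (9.15%, against 2.37%) a gene of the opposite sign had P under 0.05. These shares are descriptions with no test. StringTie divides fragments between overlapping transcripts, and whether strand was used is not given in the sources used here, so a lncRNA and a gene that share an exon cannot be counted apart with certainty. In 58 of the 316 (18.4%, against 0.585% of all tested), all libraries of 1 group had at most 3 counts. The sequences of NONCODE transcripts are not shown, since no genome sequence was used.

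The lncRNA that passed was NONMMUT045865.2 (chromosome 3, 154576526 to 154579157, GRCm38), which lies within an untranslated exon part of Tyw3. It was counted 34, 57, 50, and 56 times in the HFD + MET mice and 4, 3, 11, and 5 times in the HFD + RSV mice (log2FC -2.93 ± 0.31, P = 1.01e-07 by edgeR, exact P = 0.0286, adjusted P = 0.00179 by edgeR). No value of 1 group came near the other, and it was called under all 13 alternatives. Tyw3 itself showed the reverse, with 23, 54, 51, and 39 counts against 85, 85, 77, and 74. Summed per mouse, the pair gave 57, 111, 101, and 95 counts with metformin and 89, 88, 88, and 79 with resveratrol. Scaled to the total of both tables, these were 3.35 ± 0.716 and 3.26 ± 0.256 CPM (SD, n = 4 each), a difference of -0.02 log2 units (exact permutation P = 0.8). The share of the lncRNA in the sum was 49.5 to 59.6% with metformin, 3.41 to 12.5% with resveratrol, 41.8 to 60.6% in the HFD mice, and 51 to 57.7% in the controls. The HFD + RSV mice alone stood apart from the other groups: NONMMUT045865.2 was 2.98 log2 units below HFD with resveratrol (adjusted P = 0.00145) and at -0.05 with metformin (adjusted P = 0.989). Within Tyw3, ENSMUST00000052774 took 16 to 43 counts with metformin and 47 to 85 with resveratrol, and ENSMUST00000170461 took 7 to 14 and 0 to 27.

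**Figure D5:**
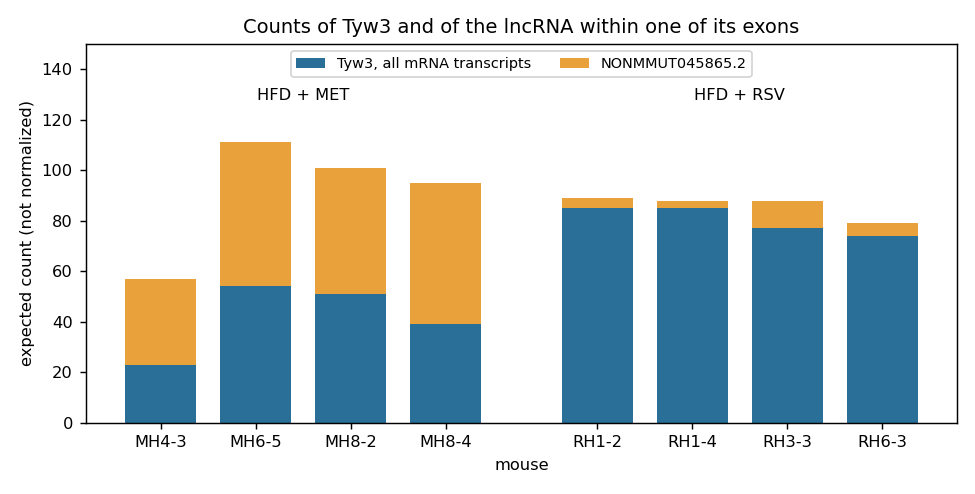
Expected counts, not normalized, of all Tyw3 mRNA transcripts (blue) and of NONMMUT045865.2 (yellow) stacked for each of the 8 mice. The lncRNA takes 34 to 57 counts in the HFD + MET mice and 3 to 11 in the HFD + RSV mice, while the stacked heights overlap between the groups.

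The named lncRNAs that share an exon with a tested gene were also summed with it. NONMMUT071969.2, within an untranslated exon part of Rp2 on the X chromosome, had 3, 3, 4, and 2 counts with metformin and 120, 14, 120, and 107 with resveratrol (log2FC 4.98 ± 1.11, P = 0.000542 by edgeR, exact P = 0.0286), and its sum with Rp2 differed by 0.00 log2 units (exact permutation P = 1). NONMMUT025210.2, within an untranslated exon part of Zfp174, had 5, 10, 7, and 4 against 17, 66, 77, and 87 counts (log2FC 3.35 ± 0.76, P = 0.00057 by edgeR, exact P = 0.0286) while Zfp174 had a log2FC of -0.70, and their sum differed by -0.16 (exact permutation P = 0.0857). NONMMUT051063.2, which overlaps exons of AW011738, had 32, 48, 40, and 40 counts with metformin and 0, 0, 1, and 0 with resveratrol, at least 12.3-fold lower when 3 counts are set for each HFD + RSV library (P = 1.34e-05 by edgeR, exact P = 0.0286, adjusted P = 0.118 by edgeR). Its sum with AW011738 differed by -0.84 log2 units (exact permutation P = 0.657). That sum was 85, 75, 57, and 62 counts with metformin and 76, 65, 5, and 86 with resveratrol, so only RH3-3 was low. Its level in the HFD mice ran from 0.292 to 15.7 CPM, so that it was spread within an untreated group too. NONMMUT127907.1, which overlaps exons of B230206H07Rik and Eps8l2, had 6, 3, 8, and 3 against 13, 42, 20, and 13 counts (log2FC 2.19 ± 0.43, P = 0.000148 by edgeR, exact P = 0.0286), and lay 2.50 log2 units below HFD with metformin. Some sums differed between the groups as well: that of ENSMUST00000123644 (log2FC 1.52) with Zfp580 differed by 0.62 log2 units (exact permutation P = 0.0286), and that of NONMMUT027903.2 (log2FC -1.82) with Mx1 by -1.30 (exact permutation P = 0.114).

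Some of the named lncRNAs lay apart from exons of genes. NONMMUT065570.2, in introns of Tenm3, had 17, 47, 32, and 27 counts with metformin and 74, 63, 40, and 55 with resveratrol (log2FC 1.06 ± 0.22, P = 0.00022 by edgeR, exact P = 0.0286). NONMMUT086399.1, outside annotated genes on chromosome 12, had 0 to 1 counts with metformin and 10 to 18 with resveratrol, at least 4.59-fold higher against 3 counts for each HFD + MET library. NONMMUT115683.1, outside genes on chromosome 4, had 19, 23, 19, and 37 against 49, 47, 60, and 37 counts (log2FC 1.11 ± 0.24, P = 0.000421 by edgeR, exact P = 0.0286). NONMMUT009926.2, in introns of the interferon-induced GTPase genes Igtp and Irgm2, was lower, with 25, 33, 54, and 34 against 19, 9, 16, and 17 counts (log2FC -1.11 ± 0.28, P = 0.00137 by edgeR, exact P = 0.0286). NONMMUT077188.1, in introns of A330023F24Rik, had 16 to 24 counts against 7 to 8. None of these 5 passed the adjusted threshold in the main edgeR fit.

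A further 10 lncRNAs, named in the study or in an earlier analysis of these data from comparisons with the HFD group, were also read, and the direct difference between the drugs passed P under 0.05 for 1 of the 9 tested. That 1, NONMMUT018494.2 within an untranslated exon part of Mef2c, had 712, 8, 575, and 7 counts with metformin and 7 in every HFD + RSV mouse (log2FC -5.64 ± 1.33, P = 0.000848 by edgeR, exact P = 0.429, adjusted P = 0.882 by edgeR). Metformin mice were thus split into a high and a low pair, and the groups overlapped, while the HFD mice had 312, 1262, 967, and 446 counts. NONMMUT065156.2, within an exon of Gsr, had 233, 346, 351, and 367 counts with metformin, 298, 268, and 276 in 3 HFD + RSV mice, and 2 in RH6-3, the level of the HFD mice (2 to 3). NONMMUT044897.2 (Cdc14a) and NONMMUT005295.2 (Traf3ip2) lay 1.54 and 1.06 log2 units below HFD with metformin and 1.55 and 1.53 with resveratrol, and the direct differences were -0.01 ± 0.37 and -0.47 ± 0.37. NONMMUT019242.2, in introns of Pde4d, had 49, 50, 40, and 77 against 28, 24, 53, and 36 counts (-0.50 ± 0.25, P = 0.0678 by edgeR, exact P = 0.171). These comparisons with HFD share the HFD mice, and intervals of this width do not show that the drugs act alike.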

How the data were processed

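The data were RNA-seq counts from the skeletal muscle of 16 mice, of which 4 HFD + RSV and 4 HFD + MET mice were compared. According to the labels and the study's methods, the authors trimmed reads with fastp, aligned them with HISAT2 to GRCm38, and counted fragments with StringTie. The authors deposited expected counts per transcript, which were whole numbers without normalization, beside FPKM values normalized by the authors for length and library size, which were not used in tests. The mRNA counts (82388 transcripts) were summed over 23235 gene names, and 58245 lncRNA transcripts were kept single.

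The quasi-likelihood test of edgeR 4.0.16 (R 4.3.3) was fitted to all 16 mice (filterByExpr with a minimum count of 10 and minimum total of 15, TMM, robust), and the standard error was the absolute log2FC divided by the square root of F. Genes were called at P under 0.05 and an absolute log2FC above 1, and P was adjusted by Benjamini-Hochberg. Exact two-sided permutation tests used log2(CPM + 0.5). The fits were tested on simulated data. Alternatives were DESeq2 1.42.0, its size factors, scaling over both tables, no filter, only the 8 mice, and each mouse left out. Motifs were searched on both strands of RefSeq promoters (GRCm38.p6).

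The groups, the 40 gene lists, and the named lncRNAs were chosen with earlier results of these data known. Named genes were up to 15 mRNA genes and 10 lncRNAs per direction with the smallest P among called features whose groups did not overlap, every called list member, up to 4 members with the smallest P per list, the named lncRNAs, and Socs1. Bounds use 3 counts per library and cover counting error only. Precision was set mostly by variation between mice (common coefficient 0.261 for genes and 0.413 for lncRNAs).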

Additional observations from a re-analysis of the deposited data

Results flagged for a closer look

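In each group of 4 mice, the gap between the highest or lowest mouse and the next was compared with the range of the group. Of 136 groups of named genes and lncRNAs, 13 exceeded Dixon's critical value for 4 samples, and chance flags about 1 group in 20. RH1-2 was the highest HFD + RSV mouse for Fos (ratio 0.975, 72.9 CPM against 21.7 to 22.4) and for Duox2 (0.914, 0.179 against 0.130 to 0.134 CPM). RH3-3 was the highest for 1810014B01Rik (0.885, 1.51 against 1.07 to 1.12 CPM) and the only HFD + RSV mouse with a count of NONMMUT051063.2 and of NONMMUT073548.2 (ratio 1 for each). RH1-4 was the lowest for NONMMUT071969.2 (0.951, 4.05 against 32.8 to 36.4 CPM). RH6-3 was the lowest for NONMMUT071570.2 (0.847, 8.59 against 35.2 to 45.2 CPM) and for NONMMUT065156.2 (0.965, 0.614 against 77.6 to 90.4 CPM). Among the HFD + MET mice, MH8-4 was the lowest for Nr4a3 (0.874, 2.48 against 2.83 to 2.88 CPM) and for AC149588.1 (0.872, 0.287 against 3.63 to 4.77 CPM) and the highest for Uckl1os (0.937, 0.395 against 0.0375 to 0.055 CPM). MH8-2 was the highest for Pllp (0.897, 1.39 against 0.539 to 0.605 CPM), and MH6-5 was the lowest for Fosb (0.986, 0.337 against 1.31 to 1.33 CPM). The flagged values were spread over 7 of the 8 mice. The screen did not take in every gene named above: Pik3r1, high in MH8-2 alone, was not among the groups compared. The flags therefore do not show how much any mouse weighs in the results.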

How the results depend on the processing

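The number of mRNA genes called (149) was 81 with only the 8 mice in the fit, 392 without the filter, 1173 for transcripts not summed per gene, and 0 with the adjusted P. When each mouse was left out in turn it ranged from 98 to 340 (98 without MH8-2, 340 without MH6-5, 309 without MH8-4, and 283 without RH3-3). At the adjusted P, 0 genes became 10 with DESeq2 and 3 for transcripts, and 0 to 0 with a mouse left out. The number of lncRNAs called (316) was 137 with only the 8 mice, 1908 without the filter, and 1 with the adjusted P, and ranged from 290 to 523 with a mouse left out (523 without MH6-5, 507 without MH8-4, and 500 without RH3-3). At the adjusted P, 1 lncRNA became 2 with only the 8 mice and 18 with DESeq2, and 1 to 3 with a mouse left out (3 without RH1-4 and 2 without RH3-3). DESeq2 size factors and scaling over both tables changed none of these 4 counts by more than 1.5 times. Over all alternatives of the 348 named features, 76 values lost a call, 73 gained one, and 0 called values changed sign. Recounts of the lists were added after the data were seen. No paired analysis was possible because the labels give the mice no replicate numbers and do not say what the numbers in their names stand for. CPM were scaled within the mRNA and the lncRNA table separately, except for sums of a lncRNA with a gene. A CPM value of a lncRNA therefore stands for fewer counts than the same value of an mRNA gene. The depth limits lncRNAs near 1 CPM and mRNA genes well below it, where a handful of counts per mouse sets the fold.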
